A study of Mus musculus with 71 samples.

Results

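RNA from mouse embryonic stem (ES) cells labelled as an EZH2 rescue was compared with RNA from cells whose label names a knockout of both Ezh1 and Ezh2 (dKO). The comparison takes every library titled as an EZH2 rescue and every library titled as the double knockout, 3 a side. These are 6 of the 71 samples of the series and 6 of its 9 RNA libraries. The remaining 3 RNA libraries, from wild-type (WT) cells, entered the same statistical fit, and their values are given beside the others for orientation. The dKO cells carry the genotype label Ezh1/Ezh2 dKO, and the rescue cells are described as re-expressing wild-type EZH2. Per the labels, all 3 groups are C57BL/6 ES cells grown on gelatin in 2i, a serum-free condition with inhibitors of the kinases MEK and GSK3, and all libraries were made from polyA RNA. The sources used here do not give the promoter that drives EZH2, the number of clones behind each group or whether replicates are separate cultures. The p-values therefore measure only the spread between these libraries, which may be technical.

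EZH1 and EZH2 are the alternative catalytic subunits of Polycomb repressive complex 2 (PRC2), which also needs EED and SUZ12 and places methyl groups on lysine 27 of histone H3. The trimethylated form marks silent promoters of developmental regulators in ES cells and is read by CBX proteins of Polycomb repressive complex 1 (PRC1). ES cells can self-renew without PRC2, but genes of many lineages are then transcribed at levels above those of normal ES cells. A comparison of cells without either enzyme with cells given EZH2 back lists which of these transcripts are lower in the latter and which are not. The groups also differ in chromosomal segments given below, and the number of clones is not known. Effects of EZH2 and other differences between the cells therefore cannot be told apart.

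Ezh2 itself (chromosome 6, 47530274 to 47595270) was at 192, 191 and 214 CPM in dKO and 555, 576 and 549 CPM in rescue, against 308, 314 and 309.9 CPM in WT, so every rescue library lay above every library of both other groups. The log2 fold change of rescue over dKO was 1.49 ± 0.058 (SE), with an adjusted p of 1.61e-09 by the quasi-likelihood test of edgeR with Benjamini-Hochberg adjustment over all tested genes. SE is the standard error of the fit, and each log2 fold change below is given as value ± SE. All other p-values of this kind come from the same test, and "rose" and "fell" are used only for genes with an adjusted p under 0.05. Values per library are counts per 1000000 counts (CPM) after TMM scaling, which corrects for differences in library composition. For Ezh1 (chromosome 11, 101191115 to 101226463) the levels were 2.34, 1.83 and 1.8 CPM in dKO and 2.89, 2.33 and 3.42 CPM in rescue, far under the 53.4, 48.4 and 47.9 CPM of WT. The rescue libraries are thus low in Ezh1, as the dKO libraries are, and high in Ezh2. Counts over a whole gene cannot show the loss of an exon, nor tell an introduced transcript from the native one, so these levels check the labels only in part.

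Of 14145 tested genes, 70.3% were called in 1 direction or the other. Higher in rescue were 32.1% of them (4534 genes) and lower 38.2% (5407 genes), and for 71.7% the 3 rescue and 3 dKO libraries did not overlap. The falls were the deeper ones. Over 2-fold changes numbered 2820 falls (19.9%) against 712 rises (5.03%), those over 4-fold 1291 against 162, and those over 16-fold 215 against 17. The genes that fell over 2-fold were mostly of low level, with a median of 5.06 CPM in dKO. Among the 12512 tested genes above the filter's cut-off of 0.45 CPM in each of the 6 libraries, 4361 rose and 4297 fell, a condition that itself leaves out genes that fell or rose across the cut-off. With a mean over all 9 libraries of at least 2 CPM required instead, 3796 genes rose and 4342 fell. A further 846 tested genes were under the cut-off in every rescue library and 109 under it in every dKO library. Such genes passed the filter through other groups, so the counts of list members below are descriptions of the members that passed. The split also moved with the scaling. With total counts in place of TMM, 3342 genes rose and 6381 fell, or 34.4% higher against 45.6% higher among all calls, and the median log2 fold change over all tested genes was -0.179 instead of -0.0444.

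1 dKO library and a few chromosomal segments stood apart. Totals ran from 12457622 to 36009529 counts per library. Across the 14145 tested genes, which are not independent, log expression of dKO replicate 3 correlated with the rescue libraries at 0.938 to 0.940, and dKO replicates 1 and 2 at 0.925 to 0.928. Of 10430 genes with a mean of at least 5 CPM, 57 differed by over 2-fold between dKO replicate 3 and the mean of the other two dKO libraries (25 higher, 32 lower), while 1 gene did between dKO replicates 1 and 2. Without dKO replicate 3, 4824 genes rose (33.7% of those tested) and 5768 fell (40.3%). On chromosome 3 the median level of genes, on a log2 scale against the WT mean, was 0.0156 and 0.00696 in dKO replicates 1 and 2, -0.419 in dKO replicate 3 and -0.44 in the median rescue library (-0.442 to -0.437). On chromosome 14 from 30 Mb onwards it was -0.0719, -0.0826 and -0.329 in dKO and -0.953 to -0.928 in rescue. Of 387 tested genes there, 315 fell and 22 rose, with a median log2 fold change of -0.919. For the 651 tested genes of chromosome 3 these numbers were 365, 66 and -0.43, and the median was -0.59 without dKO replicate 3. The end of chromosome 9 from 110 Mb stood higher in rescue, at 0.518 to 0.553 against -0.0515 to 0.0151 in dKO. The single end bin of chromosome 18, of 25 tested genes, stood at 0.324 to 0.467 in dKO and 0.68 to 0.731 in rescue. On chromosome X before 10 Mb both groups stood above WT, at 0.707 to 0.813 in dKO and 0.947 to 0.989 in rescue. DNA copy number was not measured here, and these segments were delimited after seeing medians over 10 Mb bins. Genes named below that lie on chromosome 3, on chromosome 14 from 30 Mb, on chromosome 9 from 110 Mb or on chromosome X before 10 Mb are marked as such, since the cause of a change there cannot be told apart from the shift of the whole segment.

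**Figure D1:**
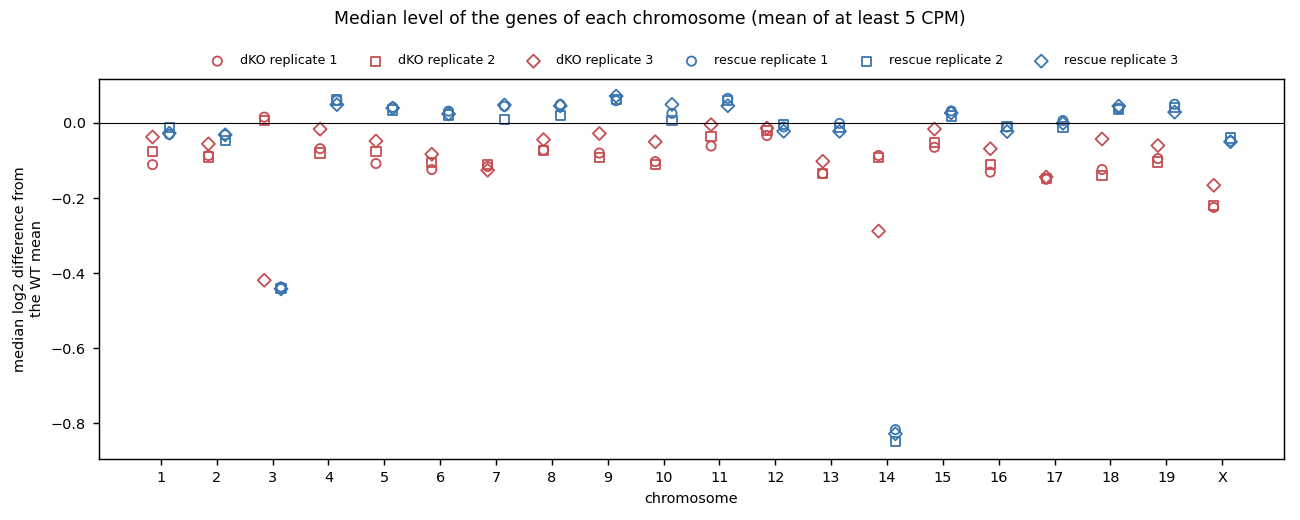
Median log2 difference from the WT mean of genes with a mean of at least 5 CPM, for each chromosome (x axis) and each dKO and rescue library (symbols). Most medians lie within about 0.2 of 0, whereas on chromosome 3 dKO replicate 3 lies beside the rescue libraries near -0.44, and on chromosome 14 all 3 rescue libraries lie lowest.

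Genes of the Polycomb machinery were among those that changed. All 6 tested PRC2 core genes rose, with a median log2 fold change of 0.66. The 6 include Ezh2, which the rescue re-expresses by design, and the knocked-out Ezh1, whose dKO and rescue libraries overlap. Eed, whose product binds trimethylated H3K27 and stimulates the enzyme, was at 129.6, 119.5 and 143 CPM in dKO and 266, 279.5 and 266 CPM in rescue. The scaffold gene Suz12 had 486, 509.8 and 649 CPM in dKO and 779, 716 and 789.6 CPM in rescue. The rescue libraries lay above the dKO libraries for both, by 1.05 ± 0.068 and 0.47 ± 0.094 on the log2 scale (adjusted p = 7.57e-08 and 0.000702). Rbbp7, a histone-binding subunit, was also higher at 415, 437 and 399 CPM against 233, 231 and 285 CPM in dKO. Its homologue Rbbp4 had the lowest log2 fold change of the 6, 0.27 ± 0.052 (adjusted p = 0.000642).

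Among 8 tested accessory subunits and inhibitors of PRC2, 2 rose and 2 fell. Mtf2, which guides PRC2 to CpG-rich DNA, was at 274, 286 and 317 CPM in dKO and 544, 439.8 and 521 CPM in rescue (log2 fold change 0.78 ± 0.089). Its paralogue Phf19 moved the other way, at 7.53, 7.42 and 8.7 CPM in dKO against 2.77, 2.05 and 2.94 CPM in rescue (log2 fold change -1.6 ± 0.16, adjusted p = 2.22e-06), and its promoter lay under a Suz12 peak of 2064 bp. The deepest fall in the list was that of AU022751, also known as Ezhip, an inhibitor of PRC2 encoded on chromosome X before 10 Mb. It was at 28.6, 31.9 and 25.7 CPM in dKO and 1.29, 0.981 and 1.51 CPM in rescue, against 1.24, 1.4 and 1.44 CPM in WT (log2 fold change -4.5 ± 0.15, adjusted p = 4.99e-10). All 3 rescue libraries lay at the WT level or near it, and the dKO libraries far above both. Jarid2, a DNA-binding cofactor of PRC2, was at 376, 382 and 460.5 CPM in dKO and 381, 425 and 403 CPM in rescue, the groups overlapped and it was not called (log2 fold change -0.013 ± 0.078, adjusted p = 0.893). E130012A19Rik, the gene of the cofactor EPOP, was at 172, 160.2 and 213 CPM in dKO and 261, 191 and 293 CPM in rescue. It passed the test (adjusted p = 0.0274), but its groups overlapped, and the call was lost under total-count and upper-quartile scaling, without the low-count filter and without any 1 of 5 of the 6 libraries, rescue replicate 2 being the exception.

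PRC1 genes split evenly: of 24 tested, 8 rose and 10 fell (33.3% and 41.7%, close to the shares of all tested genes). Phc1, a polyhomeotic subunit of canonical PRC1, was at 131, 135 and 118 CPM in dKO and 319.9, 334 and 348 CPM in rescue (log2 fold change 1.39 ± 0.063). The same direction held for 3 genes of variant PRC1 complexes. L3mbtl2 was at 128, 120.3 and 132 CPM in dKO against 239.8, 244 and 242 CPM in rescue, Kdm2b at 101, 106 and 97.3 CPM in dKO against 172, 166 and 167 CPM in rescue and Pcgf6 at 61.2, 59.9 and 61.4 CPM in dKO against 96.5, 89.6 and 95.8 CPM in rescue, with log2 fold changes of 0.93, 0.73 and 0.63. Rescue and dKO libraries did not overlap for any of these 4 genes. Pcgf1, of another variant complex, stayed within the spread at 4.9, 5.67 and 4.99 CPM in dKO and 5.46, 4.81 and 5.01 CPM in rescue (adjusted p = 0.87).

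Enzymes that act on H3K27 and H3K36 were mostly higher: 7 of 10 tested rose and 1 fell. Kdm6a, a demethylase of H3K27 on the X chromosome, was at 50.9, 55.1 and 69.3 CPM in dKO and 113, 118 and 113 CPM in rescue (log2 fold change 0.97 ± 0.094). The H3K36 methyltransferase genes Setd2 and Nsd1 rose, with log2 fold changes of 0.86 ± 0.093 and 0.78 ± 0.10, and the H3K36 demethylase gene Kdm2a rose too (log2 fold change 0.71 ± 0.075). Setd2 lies on chromosome 9 from 110 Mb. In the DNA methylation list, 4 of 8 genes rose and 3 fell (50% and 37.5%, beside 32.1% and 38.2% of all tested genes). Tet2, a dioxygenase that oxidizes 5-methylcytosine, was at 51.8, 64.7 and 68.4 CPM in dKO and 136, 159 and 160.3 CPM in rescue, and it rose although it lies on chromosome 3. Tet3 was at 17.3, 22.6 and 17.8 CPM in dKO and 7.6, 6.02 and 7.0 CPM in rescue and moved the opposite way (log2 fold changes 1.29 and -1.48). Uhrf1, which directs maintenance methylation, rose (log2 fold change 0.82 ± 0.095), and the de novo methyltransferase gene Dnmt3a fell, at 45.1, 49.8 and 50.3 CPM in dKO against 35.6, 34.6 and 34.1 CPM in rescue. Dnmt3b, at 127, 129.9 and 160.4 CPM in dKO and 134, 130.2 and 135 CPM in rescue, was not called (adjusted p = 0.487).

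**Figure D2:**
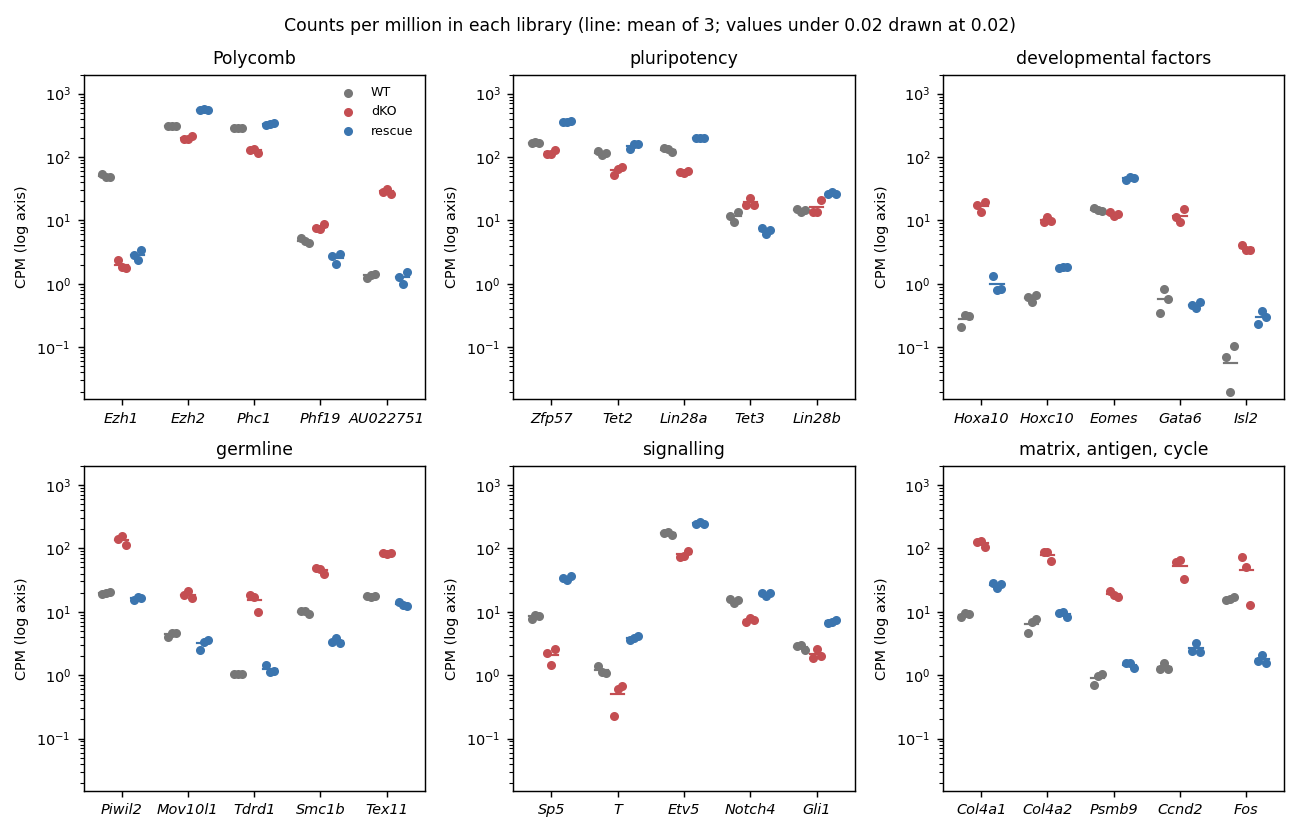
CPM (log axis) in the 3 WT, 3 dKO and 3 rescue libraries for 30 genes named in the text, 5 a panel, with the mean of each group as a line. In the developmental and germline panels the dKO points lie above the rescue points except for Eomes, and in the signalling panel all 5 genes lie higher in rescue.

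The cells had the expression of ES cells in both groups. Pou5f1 ran from 673 to 1211 CPM over the 6 libraries, Nanog from 847 to 1190 CPM and Esrrb from 937 to 1326 CPM. Of 28 general and naive pluripotency genes, 22 rose (78.6%) and 3 fell, with a median log2 fold change of 0.52. The changes were mostly under 2-fold. Lin28a, an RNA-binding protein that blocks let-7 maturation, was at 57.7, 56.8 and 60.4 CPM in dKO and 201, 197 and 198 CPM in rescue (log2 fold change 1.77 ± 0.062). Zfp57, which protects imprints, was at 114, 112 and 129.6 CPM in dKO and 351, 352 and 367 CPM in rescue (log2 fold change 1.59 ± 0.063), and the rescue values exceeded the 166, 169.8 and 168 CPM of WT as well. The zinc-finger factor Sall4 rose (log2 fold change 0.99 ± 0.062). The 3 genes that fell, named after their values were seen, were Dppa3, a maternal factor that limits maintenance methylation, at 69.9, 57.4 and 57.2 CPM in dKO against 27.5, 32.2 and 26.9 CPM in rescue, Utf1 and Prdm14. Sox2, on chromosome 3, was at 569, 570.2 and 386 CPM in dKO and 459, 460.5 and 474 CPM in rescue, with dKO replicate 3 alone under the rescue libraries. It was not called (log2 fold change -0.13 ± 0.12, adjusted p = 0.34), and was called lower without dKO replicate 3, at -0.29.

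Genes of the formative and primed states did not move as 1 group. Of 11 tested, 5 rose and 1 fell, and their median was 0.5, or 0.21 without dKO replicate 3. Cdh2, the neural cadherin, was at 2.71, 2.0 and 1.96 CPM in dKO and 8.8, 9.99 and 9.12 CPM in rescue (log2 fold change 2.1 ± 0.16). Sox11 was at 13.6, 15.6 and 11.6 CPM in dKO and 34.7, 33.4 and 35.1 CPM in rescue, back at the 38.6, 30.4 and 32.7 CPM of WT. Foxd3 and Lin28b rose, with log2 fold changes of 0.87 ± 0.15 and 0.73 ± 0.14. Otx2, the head and epiblast factor on chromosome 14, was at 8.51, 8.96 and 8.42 CPM in dKO and 8.8, 9.2 and 8.91 CPM in rescue and was not called (adjusted p = 0.655). Only 2 of 13 listed 2-cell-like genes passed the filter. Eif1a rose (log2 fold change 0.41 ± 0.074), and Tmem92, at 0.452, 0.299 and 0.639 CPM in dKO and 0.0572, 0.187 and 0.13 CPM in rescue, fell with an adjusted p of 0.0207 that was lost without dKO replicate 3 or rescue replicate 1.

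Hox genes, the clustered regulators of position along the body axis and classic targets of Polycomb, were lower in rescue in every cluster. Of the tested members, 9 of 10 Hoxa genes, 4 of 5 Hoxb genes, 8 of 9 Hoxc genes and 6 of 6 Hoxd genes fell, with medians of -2.35, -2.24, -2.47 and -1.3. Hoxc12 alone rose, and is named here after its value was seen (log2 fold change 0.67 ± 0.15). Of these 30 genes, 11 were under the filter's cut-off in every rescue library. Of the 15 above it in all 6 libraries, 13 fell and 1 rose, and in that set the medians were -1.2, -2.18, -0.64 and -1.16.

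The depth of the fall differed between genes. Hoxa10 (chromosome 6, 52231197 to 52240854), which patterns the limb and the reproductive tract, was at 17.6, 13.8 and 19.7 CPM in dKO and 1.31, 0.794 and 0.821 CPM in rescue. That was a log2 fold change of -4.06 ± 0.20 (adjusted p = 9.7e-09), with all rescue libraries above the 0.207, 0.326 and 0.309 CPM of WT. Its neighbour Hoxa11 was at 3.09, 3.97 and 3.31 CPM in dKO and 0.114, 0.187 and 0.13 CPM in rescue (log2 fold change -4.59 ± 0.28), and WT had 0.138, 0.14 and 0.0516 CPM. The antisense transcript Hoxa11os overlaps Hoxa11, and in libraries that do not mark strand their reads cannot be told apart. The Hoxa11 promoter lay under a Suz12 peak of 6844 bp. Hoxc9 was at 5.35, 5.03 and 4.23 CPM in dKO against 0.257, 0.514 and 0.173 CPM in rescue, and Hoxc8 at 2.71, 2.99 and 1.8 CPM in dKO against 0.114, 0.187 and 0.0432 CPM in rescue.

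Other Hox genes stayed above WT in rescue. Hoxc10 was at 9.57, 11.1 and 9.62 CPM in dKO and 1.8, 1.87 and 1.82 CPM in rescue, against 0.62, 0.513 and 0.67 CPM in WT (log2 fold change -2.47 ± 0.14). Hoxd9 was at 5.12, 5.25 and 6.11 CPM in dKO and 2.23, 1.82 and 2.21 CPM in rescue and Hoxd13 at 5.27, 5.25 and 7.95 CPM in dKO and 2.8, 2.29 and 2.59 CPM in rescue. Their log2 fold changes were -1.39 and -1.27, and in each the rescue libraries lay between those of dKO and WT. Hoxb13, a hindmost Hoxb gene, was at 21.9, 22 and 17.6 CPM in dKO and 2.17, 2.01 and 2.29 CPM in rescue, under the 8.47, 8.39 and 10.00 CPM of WT (log2 fold change -3.24 ± 0.14). Hoxb9, at 4.29, 7.64 and 8.03 CPM in dKO and 6.46, 6.49 and 6.66 CPM in rescue, was not called (adjusted p = 0.793), and Hoxa5, at 0.452, 0.384 and 0.599 CPM in dKO against 0.372, 0.187 and 0.303 CPM in rescue, was not called although its groups did not overlap (adjusted p = 0.166).

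Of the GATA and T-box factors, which specify mesoderm, heart and endoderm, 11 of 16 tested fell and 4 rose, with a median of -2.08. Gata6, a master factor of primitive endoderm, was at 11.2, 9.39 and 15.1 CPM in dKO and 0.457, 0.42 and 0.519 CPM in rescue (log2 fold change -4.66 ± 0.26, adjusted p = 2.16e-08). The rescue libraries lay within the WT range of 0.344, 0.839 and 0.567 CPM. Tbx5, a heart and forelimb factor, was at 7.23, 7.04 and 8.9 CPM in dKO against 0.286, 0.28 and 0.475 CPM in rescue (log2 fold change -4.49 ± 0.28). Tbx15, on chromosome 3, was at 41.1, 43.3 and 41.8 CPM in dKO against 6.26, 5.98 and 6.74 CPM in rescue, a log2 fold change of -2.73 ± 0.089 beside the chromosome's median of -0.43. Eomes, a T-box factor of trophoblast and early mesendoderm, moved the other way. It was at 13.7, 11.6 and 12.7 CPM in dKO and 43, 47.9 and 47.1 CPM in rescue and at 15.6, 14.8 and 14.2 CPM in WT, so the rescue libraries stood above both other groups (log2 fold change over dKO 1.87 ± 0.086). Its promoter lay under a Suz12 peak of 3932 bp, and it is on chromosome 9 from 110 Mb, where the median log2 fold change was 0.357. Tbx2, at 2.11, 1.41 and 3.71 CPM in dKO and 1.8, 1.73 and 2.81 CPM in rescue, was not called (adjusted p = 0.58).

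In the Sox list 7 of 14 fell and 2 rose. Sox7, an endoderm and vessel factor on chromosome 14, was at 6.03, 4.86 and 10.7 CPM in dKO against 0.229, 0.56 and 0.303 CPM in rescue (log2 fold change -4.38 ± 0.38). Sox10, the neural crest factor, was at 1.66, 1.36 and 1.92 CPM in dKO against 0.143, 0.187 and 0.216 CPM in rescue, and Sox13 fell (log2 fold change -0.75 ± 0.075). Sox4 was not called, at 10.3, 12.1 and 13.8 CPM in dKO and 11.3, 13.2 and 11.5 CPM in rescue (adjusted p = 0.899). Pax genes, few of which were transcribed, fell in 4 of 5 tested cases. Of these 5, 4 were under the filter's cut-off in every rescue library and 0 were above it in all 6 libraries. Pax8, of kidney and thyroid, was at 3.31, 4.69 and 3.47 CPM in dKO and 0.314, 0.14 and 0.216 CPM in rescue (log2 fold change -4.0 ± 0.30), and the other 3 that fell were under 2 CPM in every library. Pax3, at 2.11, 1.2 and 0.359 CPM in dKO and 0.514, 0.607 and 0.519 CPM in rescue, varied strongly within dKO. It was not called (adjusted p = 0.0876) and was called lower without dKO replicate 3, at -1.51.

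Homeobox genes of the LIM, sine oculis and Iroquois families fell in 12 of 15 tested cases and rose in 2. Of the 15, 6 were under the filter's cut-off in every rescue library. Of the 8 above it in all 6 libraries, 5 fell and 2 rose. Lmx1b, a limb and midbrain factor, was at 7.46, 7.17 and 5.71 CPM in dKO and 0.229, 0.42 and 0.432 CPM in rescue (log2 fold change -4.27 ± 0.26), under the 1.1, 1.58 and 1.96 CPM of WT. Irx3 was at 6.48, 6.31 and 6.47 CPM in dKO and 0.457, 0.467 and 0.605 CPM in rescue (log2 fold change -3.65 ± 0.18), and Isl2 at 4.07, 3.37 and 3.47 CPM in dKO against 0.229, 0.373 and 0.303 CPM in rescue. Isl1, its paralogue, kept 2.54, 2.43 and 2.59 CPM in rescue from 9.19, 9.86 and 9.58 CPM in dKO (log2 fold changes -3.6 and -1.92). All 4 promoters lay under Suz12 peaks, of 7368, 8595, 7739 and 2430 bp. Lhx6, under a peak of 3998 bp, was not called, with 2.34, 2.48 and 2.44 CPM in dKO against 2.74, 2.62 and 2.77 CPM in rescue (adjusted p = 0.445).

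Nkx and other homeobox factors made the longest list, with 32 of 60 tested, of which 20 fell and 7 rose (median -1.17). Of the 32, 9 were under the filter's cut-off in every rescue library. Of the 18 above it in all 6 libraries, 9 fell and 5 rose, with a median of -0.271. Pitx1, a hindlimb and pituitary factor, was at 18.5, 17.4 and 16.8 CPM in dKO and 1.34, 1.12 and 1.34 CPM in rescue (log2 fold change -3.77 ± 0.16). Barx1, a stomach and jaw factor, was at 5.8, 5.42 and 4.75 CPM in dKO against 0.40, 0.187 and 0.346 CPM in rescue (log2 fold change -4.0 ± 0.24). Gbx2, which acts in naive ES cells downstream of LIF, went up, at 4.75, 4.39 and 4.07 CPM in dKO against 16.1, 13.4 and 16.4 CPM in rescue (log2 fold change 1.81 ± 0.13), and so exceeded WT at 9.09, 10.5 and 8.71 CPM. Cdx2, a trophoblast and hindgut factor under a Suz12 peak of 8028 bp, did not differ beyond its spread. It was at 1.05, 1.07 and 1.6 CPM in dKO and 1.03, 1.17 and 1.64 CPM in rescue, against 0.275, 0.186 and 0.258 CPM in WT (adjusted p = 0.993).

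Neurogenic and myogenic bHLH factors fell in 6 of 12 tested cases and rose in 2. Hes1, a Notch effector, rose (log2 fold change 0.58 ± 0.066), while Hey1, also a Notch effector but on chromosome 3, was at 15.6, 14.8 and 8.3 CPM in dKO against 4.0, 2.8 and 3.93 CPM in rescue (log2 fold change -1.82 ± 0.24). Neurog1 was at 1.66, 1.83 and 1.28 CPM in dKO against 0.257, 0.187 and 0.13 CPM in rescue. The neighbours Olig1 and Olig2 parted: Olig1 fell (log2 fold change -0.83 ± 0.12), and Olig2, at 94.2, 89.4 and 73 CPM in dKO and 77.7, 85.1 and 83.6 CPM in rescue, was not called (adjusted p = 0.6). Both rescue and dKO lay above the 25.3, 26.4 and 22.7 CPM of WT for Olig2. Of 14 tested Fox factors, 6 were lower and 5 higher (42.9% and 35.7%, beside 38.2% and 32.1% of all tested genes). Of the 14, 5 were under the filter's cut-off in every rescue library. Of the 8 above it in all 6 libraries, 5 rose and 1 fell. Foxf1, of visceral mesoderm, was at 1.96, 2.05 and 1.88 CPM in dKO against 0.0858, 0 and 0.0865 CPM in rescue (log2 fold change -4.85 ± 0.46). Foxd1, of kidney stroma, rose from 0.979, 1.79 and 2.0 to 5.03, 4.02 and 5.66 CPM (log2 fold change 1.56 ± 0.25), above the 0.413, 0.42 and 0.877 CPM of WT. Foxj1 and Foxa1 fell, with log2 fold changes of -3.35 ± 0.34 and -2.16 ± 0.30, and Foxd2 was not called (log2 fold change -0.64, adjusted p = 0.0792).

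**Figure D3:**
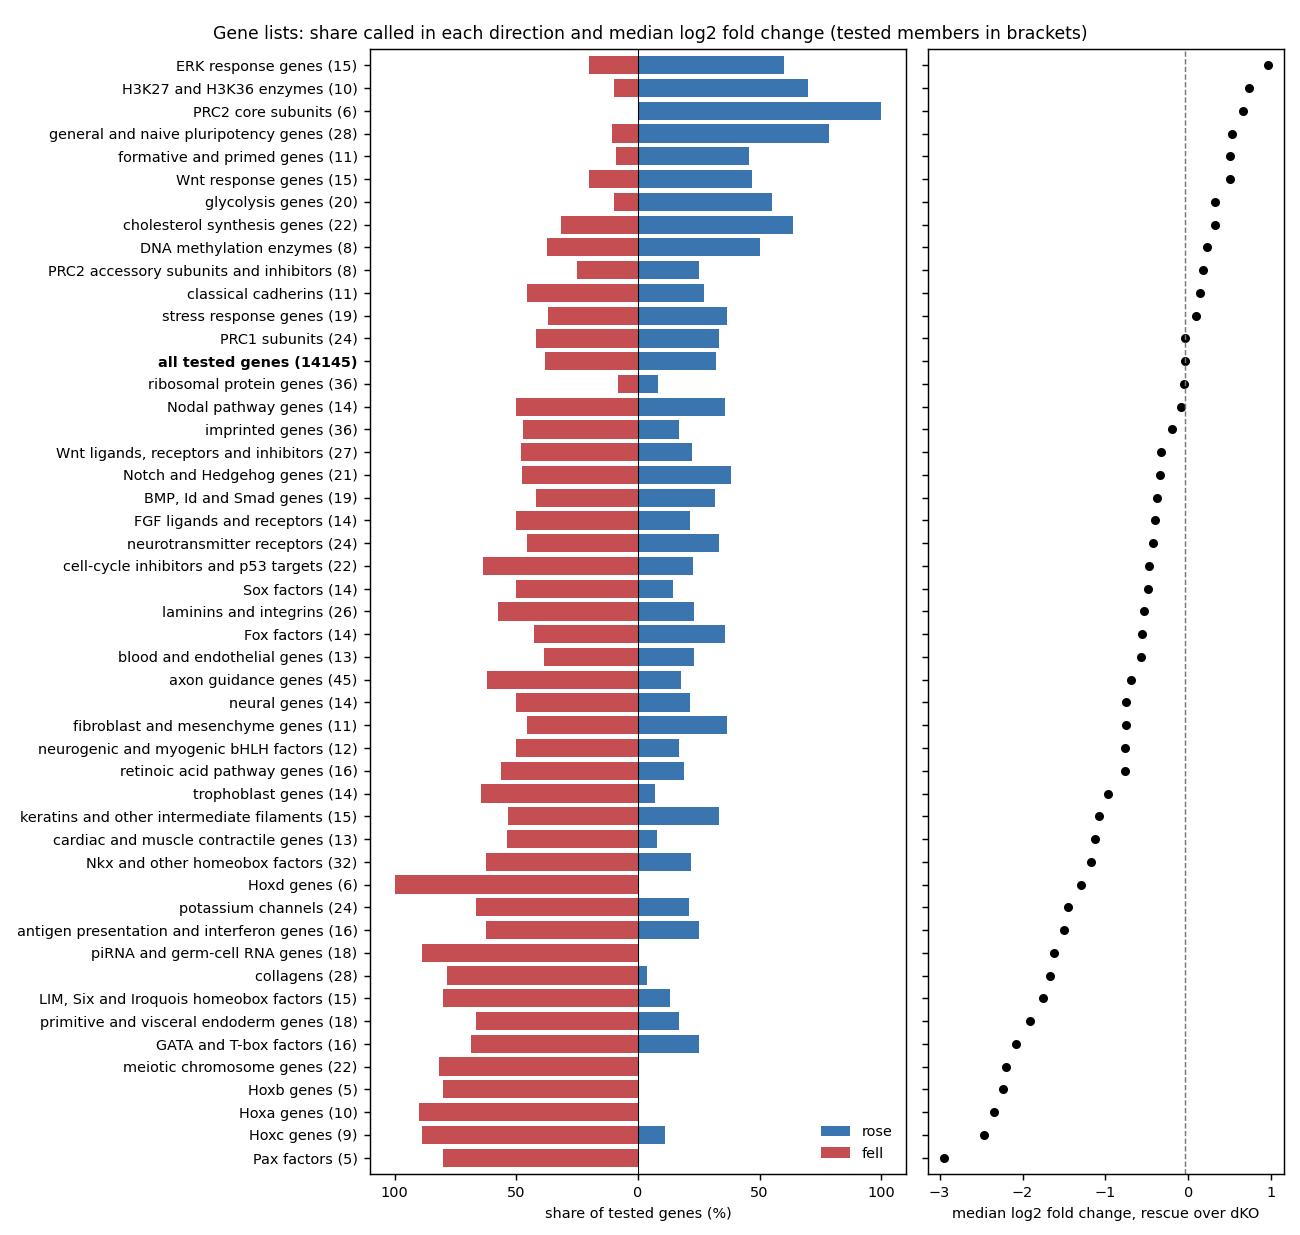
For each gene list with at least 5 tested members (number in brackets), the share that fell (red, left) and rose (blue, right) in rescue against dKO, and the median log2 fold change (points, with the median of all tested genes as a dashed line). Of the lists drawn, Pax and Hoxc factors have the lowest medians, -2.95 and -2.47, and ERK response genes the highest, 0.96. Low medians depend in part on the filter. Of the 5 tested Pax genes, 4 were under its cut-off in every rescue library and 0 above it in all 6 libraries. Over the 4 Hoxc genes above it in all 6, the median was -0.638.

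Lists of genes that mark differentiated cells were read as levels as well as changes, since the libraries are of bulk RNA, in which fewer cells of a type and less RNA per cell cannot be told apart. The 24 listed markers of primitive and visceral endoderm summed to 2390 to 2670 CPM in dKO and 4070 to 4150 CPM in rescue. The sum is mostly that of 3 genes that ES cells also express, Sparc, Apoe and Lamc1, named after their values were seen, and these rose: Sparc was at 470.3, 480.5 and 720.5 CPM in dKO and 1637, 1566 and 1628 CPM in rescue, against 945, 947 and 1007 CPM in WT. Of 18 tested genes of the list, 12 fell. The basement membrane collagens Col4a1 and Col4a2, a neighbouring pair of genes with starts close together under 1 Suz12 peak of 2847 bp, are shared with the collagen list. Col4a1 (chromosome 8, 11198423 to 11312889) was at 124, 132 and 105 CPM in dKO and 28.6, 23.7 and 27.1 CPM in rescue and Col4a2 (chromosome 8, 11312805 to 11449287) at 87.2, 86.5 and 64 CPM in dKO and 9.72, 9.99 and 8.17 CPM in rescue. The log2 fold changes were -2.18 ± 0.098 and -3.09 ± 0.16 (adjusted p = 4.61e-09 and 1.9e-08), and for Col4a1 all rescue libraries stayed above the 8.4, 9.46 and 9.13 CPM of WT. Amn, of the visceral endoderm uptake receptor, was at 7.61, 7.0 and 7.35 CPM in dKO against 1.0, 0.747 and 1.08 CPM in rescue (log2 fold change -2.93 ± 0.18). Sox17, at 0.753, 0.981 and 0.918 CPM in dKO and 1.09, 0.747 and 1.21 CPM in rescue, was not called (adjusted p = 0.534), and Cer1 had 0 counts in all 6 libraries.

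Cardiac and muscle contractile genes summed to 63.6 to 70.3 CPM in dKO and 25.6 to 26 CPM in rescue, and 7 of 13 tested fell and 1 rose. Myh6, the cardiac myosin heavy chain gene on chromosome 14, was at 6.48, 6.27 and 4.99 CPM in dKO and 0.429, 0.70 and 0.346 CPM in rescue (log2 fold change -3.6 ± 0.31). Des, the muscle intermediate filament gene, was at 26.4, 27.4 and 27.9 CPM in dKO and 6.2, 5.74 and 6.83 CPM in rescue, under the 14.4, 15.7 and 15.5 CPM of WT (log2 fold change -2.12 ± 0.092). The atrial light chains Myl4 and Myl7 fell, with log2 fold changes of -2.71 ± 0.23 and -1.13 ± 0.15. Tagln was not called, at 0.829, 0.512 and 1.28 CPM in dKO against 0.657, 0.747 and 0.951 CPM in rescue (adjusted p = 0.635), and Pln was at 0 counts throughout.

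Neural genes divided by member, with 7 of 14 lower and 3 higher, and a sum of 385 to 429 CPM in dKO and 497 to 575 CPM in rescue. Nes, the progenitor filament gene on chromosome 3, was at 104, 113 and 91.1 CPM in dKO and 22.2, 24.2 and 21.3 CPM in rescue (log2 fold change -2.18 ± 0.094). Tubb3, neuronal tubulin, rose to 97.4, 92.5 and 90.6 CPM from 18.4, 17.9 and 23.4 CPM (log2 fold change 2.23 ± 0.097), well over the 31.7, 31.8 and 29.6 CPM of WT. Map2 fell (log2 fold change -1.31 ± 0.11), and Nefl, on chromosome 14, also fell (log2 fold change -0.81 ± 0.096, against -0.919 for its segment). Slc1a3 was not called (adjusted p = 0.952), and Dcx had 0 counts in the 6 libraries.

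Trophoblast markers summed to 376 to 441 CPM in dKO and 262 to 273 CPM in rescue, and 9 of 14 tested fell. The 1 that rose was Eomes, and 3 rose without dKO replicate 3. Krt18, a simple-epithelium keratin, was at 27.7, 28.8 and 45.1 CPM in dKO and 6.89, 6.44 and 6.22 CPM in rescue (log2 fold change -2.38 ± 0.17), with its highest value in dKO replicate 3. Krt7 was at 28.1, 28.2 and 39.5 CPM in dKO against 9.57, 8.87 and 7.57 CPM in rescue, and Tfap2c at 169, 167 and 139.8 CPM in dKO against 87.1, 90.1 and 84.3 CPM in rescue (log2 fold changes -1.88 and -0.86). For both, rescue lay under WT, at 29.9, 27.9 and 26.4 and 167, 173 and 161 CPM. Prl3d1 and Tpbpa, markers of trophoblast giant cells and spongiotrophoblast, had 0 counts in all 6 libraries.

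Fibroblast and mesenchyme genes (1930 to 2500 CPM in dKO and 3600 to 4080 CPM in rescue) were mixed: 5 of 11 fell and 4 rose. These shares were 45.5% and 36.4%, beside 38.2% and 32.1% of all tested genes. Thy1, a surface antigen, was at 28.7, 30.9 and 30.1 CPM in dKO and 1.8, 1.45 and 1.69 CPM in rescue (log2 fold change -4.17 ± 0.18). Vim, the mesenchymal filament gene, ran the other way at 15.5, 16.3 and 30.2 CPM in dKO and 132, 133 and 136 CPM in rescue, against 349.7, 348 and 332 CPM in WT (log2 fold change 2.67 ± 0.20, or 3.07 without dKO replicate 3). Fbn1 fell (log2 fold change -1.68 ± 0.15), and Fn1, which dominates the sum of the list, was at 1915, 2381 and 1792 CPM in dKO against 3398, 3882 and 3505 CPM in rescue (log2 fold change 0.82 ± 0.095). Twist1 was not called (adjusted p = 0.19), and Lum and S100a4 had 0 counts in the 6 libraries. Among blood and endothelial genes (449 to 472 CPM in dKO and 602 to 626 CPM in rescue), 5 of 13 fell and 3 rose, and the median of -0.57 was -0.15 without dKO replicate 3. The shares were 38.5% and 23.1%, beside 38.2% and 32.1% of all tested genes. Of the 8 above the filter's cut-off in all 6 libraries, 3 rose and 2 fell, with a median of 0.0473. Cd44 was at 8.06, 7.85 and 6.35 CPM in dKO against 0.543, 0.42 and 0.432 CPM in rescue (log2 fold change -3.94 ± 0.22), and Lmo2 fell (log2 fold change -2.31 ± 0.32). Pecam1 and Kit, which ES cells also express, rose, with log2 fold changes of 0.64 ± 0.049 and 0.39 ± 0.058. Cd34 was not called (adjusted p = 0.914), and the globin genes Hba-x and Hba-a1 had 0 counts.

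No tested gene of the 2 germline lists rose. Of 18 tested genes of the piRNA pathway and germ-cell RNA biology, 16 fell and 0 rose (median -1.62). Of 22 tested meiotic chromosome genes, 18 fell and 0 rose (median -2.2, or -1.46 over the 16 that were above the filter's cut-off in all 6 libraries). Some promoters of these lists hold the palindrome CACGTG, the E-box bound by MAX dimers and other bHLH factors. It was found in the window from 250 bases before to 50 bases after the start in 43.8% of 16 piRNA genes and 35.0% of 20 meiotic genes with a window, against 11.8% of all tested genes and 9.2% of all genes with a window. Outside these lists the motif did not go with falls. Over all tested genes with a window, it was in 11.5% of those that fell, 9.5% of those that fell over 4-fold and 12.8% of those that rose. A Suz12 peak lay over the promoter of 37.5% and 15.0% of these 2 lists, against 23.8% of all tested genes with a window.

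The upstream 250 bases of the promoters of the piRNA genes Tdrd1, Tdrd9 and Mov10l1 are shown 5′ to 3′ in the direction of the gene, all on the plus strand of GRCm38.p6 from RefSeq (chr19:56825959-56826208, chr12:111971309-111971558 and chr15:88982744-88982993), with CACGTG in capitals.
Tdrd1: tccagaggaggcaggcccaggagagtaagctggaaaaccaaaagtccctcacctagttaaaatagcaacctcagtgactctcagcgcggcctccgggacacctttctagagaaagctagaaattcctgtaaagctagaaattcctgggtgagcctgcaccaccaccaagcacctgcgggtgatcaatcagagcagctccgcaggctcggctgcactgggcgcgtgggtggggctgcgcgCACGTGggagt
Tdrd9: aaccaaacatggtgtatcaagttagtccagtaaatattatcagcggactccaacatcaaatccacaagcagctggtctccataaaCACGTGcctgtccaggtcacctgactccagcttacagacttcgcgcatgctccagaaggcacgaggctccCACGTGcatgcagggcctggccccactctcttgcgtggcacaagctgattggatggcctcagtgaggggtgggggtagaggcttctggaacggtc
Mov10l1: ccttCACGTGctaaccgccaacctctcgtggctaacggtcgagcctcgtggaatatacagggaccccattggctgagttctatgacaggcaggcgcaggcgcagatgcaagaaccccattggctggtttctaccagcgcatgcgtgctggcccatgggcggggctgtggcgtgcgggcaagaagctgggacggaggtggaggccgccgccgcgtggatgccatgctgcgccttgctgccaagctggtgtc
The motif began 11 bases before the start in Tdrd1, 165 and 95 bases before it in Tdrd9 and 246 bases before it in Mov10l1. A match is a description of the letters and does not show binding. Tdrd1 had a Suz12 peak of 548 bp over its promoter, and Tdrd9 and Mov10l1 had none.

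These 3 genes fell, Tdrd1 to near its WT level of 1.03, 1.03 and 1.03 CPM and the other pair to under WT. Tdrd1, a Tudor scaffold of the piRNA pathway, was at 18.6, 17.1 and 9.82 CPM in dKO and 1.43, 1.12 and 1.17 CPM in rescue, with dKO replicate 3 the lowest of its group (log2 fold change -3.57 ± 0.24, or -3.81 without it). Tdrd9, a helicase, was at 4.67, 3.75 and 3.79 CPM in dKO and 0.372, 0.327 and 0.389 CPM in rescue, against 1.17, 0.793 and 0.722 CPM in WT (log2 fold change -3.45 ± 0.23, adjusted p = 1.21e-07). Mov10l1, the helicase that loads piRNA precursors, was at 18.2, 21.1 and 16.4 CPM in dKO and 2.52, 3.36 and 3.59 CPM in rescue (log2 fold change -2.58 ± 0.15), against 4.06, 4.57 and 4.54 CPM in WT. Piwil2, a piRNA-binding Argonaute on chromosome 14, had the highest CPM of the 4, at 139.5, 158 and 113 CPM in dKO and 15.3, 17.3 and 16.2 CPM in rescue. Its log2 fold change of -3.07 ± 0.11 stands beside a median of -0.919 for its segment. Pld6, the mitochondrial nuclease of the pathway, also carries the motif but was not called, at 9.64, 9.9 and 7.79 CPM in dKO and 9.2, 7.42 and 10.5 CPM in rescue (adjusted p = 0.996).

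Of the meiotic genes, Smc1b, the meiotic cohesin subunit, was at 48.8, 47.1 and 39 CPM in dKO and 3.37, 3.83 and 3.2 CPM in rescue, under the 10.3, 10.2 and 9.07 CPM of WT (log2 fold change -3.7 ± 0.12, adjusted p = 4.06e-10). Tex11, on the X chromosome, was at 80 to 85.8 CPM over the dKO libraries and 14.3, 12.6 and 12.3 CPM in rescue (log2 fold change -2.66 ± 0.077). Syce1, of the synaptonemal complex, was at 61, 58.5 and 51.2 CPM in dKO and 12.4, 11.6 and 11.4 CPM in rescue (log2 fold change -2.26 ± 0.11) and stayed above its 4.48, 5.13 and 3.46 CPM in WT. Sycp3, an axial element protein with CACGTG in its promoter, was at 5.73, 6.02 and 10.02 CPM in dKO and 7.09, 5.46 and 7.18 CPM in rescue and was not called (adjusted p = 0.495). Both groups were under the 15.7, 16.6 and 19.7 CPM of WT.

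Most collagen genes were lower in rescue, while other abundant matrix genes, Fn1, Sparc and Lamc1, were higher, as given above. Of 28 tested collagens, 22 fell and 1 rose, Col18a1, named here after its value was seen (log2 fold change 0.17 ± 0.066) and not called under 7 of 18 other settings. The median was -1.67, and 8 of the 28 were under the filter's cut-off in every rescue library. Besides the Col4 pair, the cartilage collagen Col2a1 was at 17.2, 14.3 and 14.5 CPM in dKO and 2.49, 2.24 and 2.55 CPM in rescue (log2 fold change -2.65 ± 0.13), close to WT (2.41, 2.75 and 2.42 CPM). Col6a2 was at 7.01, 7.12 and 4.91 CPM in dKO against 0.343, 0.28 and 0.303 CPM in rescue (log2 fold change -4.3 ± 0.28). Col5a1, under a Suz12 peak of 749 bp, did not follow: it was at 15.1, 14.9 and 12.1 CPM in dKO and 14.4, 12.7 and 12.7 CPM in rescue (adjusted p = 0.595), and both groups lay above the 5.92, 5.41 and 5.67 CPM of WT.

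Laminins and integrins fell in 15 of 26 tested cases and rose in 6. Itgb1, the common beta chain, was at 386, 374 and 343 CPM in dKO and 159, 158 and 161 CPM in rescue (log2 fold change -1.2 ± 0.058), and Itga3 at 81.6, 85.8 and 76.1 CPM in dKO and 24.7, 21.3 and 22.7 CPM in rescue (log2 fold change -1.82 ± 0.083). Itgb3 was at 25.5, 29.6 and 16 CPM in dKO against 2.63, 2.8 and 1.86 CPM in rescue (log2 fold change -3.27 ± 0.23), and Itgav, its partner, was not called at 90.2, 104 and 106 CPM in dKO against 104, 94.5 and 107 CPM in rescue (adjusted p = 0.826). Of 11 tested cadherins, 3 rose and 5 fell (27.3% and 45.5%, beside 32.1% and 38.2% of all tested genes). Cdh1, the epithelial cadherin of ES cells, was at 745, 724 and 754 CPM in dKO and 1345, 1477 and 1376 CPM in rescue (log2 fold change 0.92 ± 0.052), while Cdh4 fell from 18.8, 18.9 and 17.9 to 1.66, 1.54 and 1.99 CPM (log2 fold change -3.42 ± 0.13). Cdh3 fell (log2 fold change -0.72 ± 0.089), and Cdh6 was not called (adjusted p = 0.808). Of 15 keratins and other intermediate filament genes, 8 fell and 5 rose (53.3% and 33.3%). Lmna, lamin A/C of the nuclear envelope and on chromosome 3, was at 87.8, 93.9 and 82 CPM in dKO and 19.2, 20.6 and 18.7 CPM in rescue (log2 fold change -2.17 ± 0.075), and Lmnb2 rose (log2 fold change 0.85 ± 0.058). Krt17, at 1.28, 1.11 and 3.59 CPM in dKO and 2.52, 2.24 and 2.42 CPM in rescue, was not called, and was called higher without dKO replicate 3, at 1.03.

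Of 24 tested potassium channel genes 16 fell (66.7%) and 5 rose, with 10 of the 24 under the filter's cut-off in every rescue library. Kcnk1 was at 23, 21.1 and 19.7 CPM in dKO and 3.77, 3.22 and 4.8 CPM in rescue (log2 fold change -2.43 ± 0.16), and Kcnh1 at 13.1, 12.7 and 6.99 CPM in dKO against 0.743, 0.70 and 0.562 CPM in rescue (log2 fold change -3.99 ± 0.30). Kcnk5 rose to 79.5, 76.8 and 73.2 CPM from 31.3, 31.2 and 38.4 CPM (log2 fold change 1.18 ± 0.084), and Kcnh3 rose (log2 fold change 1.52 ± 0.12). Kcnn2 was not called (adjusted p = 0.794). Neurotransmitter receptor genes lay near the shares of all tested genes: of 24, 11 fell (45.8%) and 8 rose (33.3%). The glutamate receptor subunit Grin1 was at 18.2, 16.9 and 17.9 CPM in dKO and 4.14, 4.3 and 4.63 CPM in rescue (log2 fold change -2.02 ± 0.11), and Grin2c and Grin3a fell, with log2 fold changes of -3.0 ± 0.28 and -5.46 ± 0.34. Htr5a, a serotonin receptor, was at 0.151, 0.299 and 0.639 CPM in dKO and 15.1, 17 and 15.7 CPM in rescue (log2 fold change 5.29 ± 0.23), the largest rise of the list. Chrna4, a nicotinic receptor subunit, was at 16.1, 16.7 and 22.3 CPM in dKO and 17.1, 16.1 and 20.02 CPM in rescue, against 3.58, 3.36 and 3.76 CPM in WT, and was not called (adjusted p = 0.693).

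Axon guidance genes, many of which also act in early embryos, fell in 28 of 45 tested cases and rose in 8. Ephb2, a receptor under a Suz12 peak of 1686 bp, was at 76.8, 71.6 and 78.2 CPM in dKO and 15, 17.6 and 15.8 CPM in rescue (log2 fold change -2.23 ± 0.079, adjusted p = 7.78e-10). Its ligand genes Efnb1 and Efnb3 fell as well. Efnb1, on the X chromosome, was at 19, 18.4 and 17.9 CPM in dKO against 5.95, 5.7 and 5.92 CPM in rescue, and WT, at 19.4, 18.4 and 19.96 CPM, was level with dKO. Efnb3 fell (log2 fold change -2.79 ± 0.15). Robo1, the Slit receptor, rose from 15.3, 16.5 and 15.5 to 49.6, 47.8 and 51.5 CPM (log2 fold change 1.65 ± 0.080). Unc5b was not called, with 53.5, 53.1 and 75 CPM in dKO against 58.7, 56.4 and 63.6 CPM in rescue (adjusted p = 0.853).

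Signalling genes were read from ligands to targets. Of 27 tested Wnt ligands, receptors and inhibitors, 13 fell and 6 rose, and of 15 Wnt response genes 7 rose and 3 fell. The receptor gene Fzd5 was at 81.4, 89.5 and 92.3 CPM in dKO and 228, 251 and 239 CPM in rescue and Fzd10 at 24.6, 27.1 and 31.8 CPM in dKO and 101, 97.3 and 98.7 CPM in rescue. Both stood above WT as well (123, 123 and 122 and 62, 55 and 56.3 CPM), with log2 fold changes over dKO of 1.45 ± 0.062 and 1.82 ± 0.089. Fzd3, on chromosome 14, fell (log2 fold change -2.41 ± 0.13). The secreted Dkk3 was at 58.7, 59.6 and 38.6 CPM in dKO against 8.43, 9.01 and 8.13 CPM in rescue (log2 fold change -2.61 ± 0.15), and Fzd8 was not called (adjusted p = 0.995).

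Sp5 (chromosome 2, 70474923 to 70477726), a direct target of beta-catenin, was at 2.26, 1.45 and 2.56 CPM in dKO and 34, 32 and 37 CPM in rescue, against 7.64, 8.91 and 8.71 CPM in WT. The log2 fold change was 4.05 ± 0.16 (adjusted p = 1.61e-09), and rescue exceeded WT in every library. Its promoter lay under a Suz12 peak of 6511 bp. The 250 bases before its start (chr2:70474673-70474922, plus strand, GRCm38.p6, RefSeq) are shown because the gene rose under a wide peak. Capitals mark CTTTGAT, the core letters of a site for TCF and LEF factors, searched on both strands.
Sp5: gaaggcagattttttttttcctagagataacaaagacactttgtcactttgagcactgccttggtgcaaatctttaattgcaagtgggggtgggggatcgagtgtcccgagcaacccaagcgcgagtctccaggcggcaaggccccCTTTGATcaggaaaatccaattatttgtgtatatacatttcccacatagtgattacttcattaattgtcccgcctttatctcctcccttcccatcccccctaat
The motif began 104 bases before the start. It was in the window of 3.07% of all tested genes and 3.87% of all genes, and the match does not show binding. T, the brachyury gene of the primitive streak under a peak of 2677 bp, was at 0.226, 0.597 and 0.679 CPM in dKO and 3.63, 3.83 and 4.11 CPM in rescue (log2 fold change 2.81 ± 0.25), and it too exceeded WT (1.38, 1.12 and 1.08 CPM). Nkd1, a feedback inhibitor of Wnt, fell instead, at 7.46, 7.81 and 7.95 CPM in dKO against 2.86, 2.57 and 2.85 CPM in rescue (log2 fold change -1.48 ± 0.13).

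FGF ligands and receptors fell in 7 of 14 tested cases and rose in 3. Fgf15 was at 12.1, 11.3 and 6.07 CPM in dKO against 0.314, 0.42 and 0.216 CPM in rescue (log2 fold change -4.92 ± 0.34), with the lowest dKO value in replicate 3. Fgfr3 was at 2.03, 1.66 and 2.67 CPM in dKO against 0.172, 0.234 and 0.13 CPM in rescue, and Fgfrl1, a decoy receptor, at 15.1, 13.5 and 13 CPM in dKO against 5.95, 6.02 and 7.0 CPM in rescue (log2 fold changes -3.56 and -1.13). Fgf17, a ligand gene on chromosome 14, rose from 0.0753, 0.299 and 0.24 CPM in dKO to 6.14, 6.82 and 7.31 CPM in rescue (log2 fold change 4.87 ± 0.24). Fgf10, named after its values were seen, rose as well (log2 fold change 0.73 ± 0.089). Fgfr1, at 96.7, 100.5 and 131 CPM in dKO and 115, 108 and 117 CPM in rescue, was not called with all libraries (adjusted p = 0.71) and was called higher without dKO replicate 3, at 0.2. Genes that respond to ERK, the kinase downstream of FGF receptors whose activator MEK is inhibited in 2i, rose in 9 of 15 tested cases and fell in 3 (median 0.96).

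Etv5, an ETS factor of this response, was at 73.2, 75.7 and 91.9 CPM in dKO and 238, 257 and 244 CPM in rescue (log2 fold change 1.61 ± 0.084). Dusp6, an ERK phosphatase, was at 2.86, 2.9 and 2.52 CPM in dKO and 8.0, 8.73 and 8.39 CPM in rescue (log2 fold change 1.6 ± 0.13), and Ier2 rose (log2 fold change 1.18 ± 0.060). Spry4, a feedback inhibitor, was at 0.226, 0.171 and 0.639 CPM in dKO and 5.83, 4.67 and 6.36 CPM in rescue and at only 0.207, 0.233 and 0.206 CPM in WT, so the rescue libraries were alone in expressing it above 1 CPM (log2 fold change 3.91 ± 0.31). Spry1, on chromosome 3, was not called (adjusted p = 0.814). Fos, an immediate early gene, fell but differed strongly between dKO libraries. It was at 74.1, 51.3 and 12.7 CPM in dKO, 1.69, 2.05 and 1.56 CPM in rescue and 15.1, 15.6 and 16.8 CPM in WT (log2 fold change -4.69 ± 0.66, adjusted p = 0.000273).

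Of 19 tested BMP, Id and Smad genes, 8 were lower and 6 higher (42.1% and 31.6%, near the shares of all tested genes). Targets of BMP signalling changed both ways. Bmp7 was at 41.1, 43.4 and 39.7 CPM in dKO and 14.1, 14.2 and 14.8 CPM in rescue, under its 25.6, 24.7 and 26.7 CPM in WT (log2 fold change -1.53 ± 0.073). Id2, a target of BMP signalling, was at 26.1, 24.1 and 36.4 CPM in dKO and 9.32, 7.98 and 7.74 CPM in rescue (log2 fold change -1.79 ± 0.17), and Bmp8b fell (log2 fold change -1.99 ± 0.26). Id3, another target, was at 2.26, 3.46 and 9.5 CPM in dKO and 27.9, 23.4 and 28.6 CPM in rescue (log2 fold change 2.31 ± 0.36), with the highest dKO value in replicate 3. Smad7, an inhibitor of BMP and TGF-beta signalling, was at 38.3, 38.9 and 58.6 CPM in dKO and 88.5, 85.5 and 89.7 CPM in rescue (log2 fold change 0.95 ± 0.13). Id3 and Smad7 were named after their values were seen. Bmpr1a, a type I receptor gene on chromosome 14, was at 122, 129.8 and 154 CPM in dKO and 67.6, 72.5 and 69.4 CPM in rescue. Its log2 fold change of -0.96 ± 0.080 was close to the median of its segment, -0.919. Smad9, on chromosome 3, was not called (adjusted p = 0.448).

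In the Nodal list 7 of 14 fell and 5 rose (50% and 35.7%, beside 38.2% and 32.1% of all tested genes). Nodal itself, a TGF-beta ligand, was at 61.9, 61.4 and 74.4 CPM in dKO and 193, 188 and 179 CPM in rescue, over the 102, 106 and 104 CPM of WT (log2 fold change 1.5 ± 0.075). Its inhibitor and target Lefty2 went the other way, at 384, 364 and 455 CPM in dKO and 151, 151 and 146 CPM in rescue, while WT had 43.4, 49 and 37.2 CPM (log2 fold change -1.43 ± 0.098). The rescue libraries thus lay between dKO and WT for Lefty2 and above both for Nodal. The convertase gene Pcsk6 and the effector gene Smad3 fell, with log2 fold changes of -0.9 ± 0.059 and -0.93 ± 0.064. Acvr2a was not called with all libraries (adjusted p = 0.0857).

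Notch and Hedgehog genes fell in 10 of 21 tested cases and rose in 8 (47.6% and 38.1%, beside 38.2% and 32.1% of all tested genes). Gli2, a Hedgehog effector, was at 38.4, 47.9 and 53.4 CPM in dKO and 116, 122 and 135 CPM in rescue (log2 fold change 1.41 ± 0.10), and Gli1, its target, at 1.88, 2.56 and 2.04 CPM in dKO and 6.63, 6.96 and 7.52 CPM in rescue, over the 2.89, 2.98 and 2.48 CPM of WT (log2 fold change 1.68 ± 0.15). Notch4 rose (log2 fold change 1.35 ± 0.10), the Notch-modifying enzyme gene Mfng fell (log2 fold change -2.06 ± 0.17), and Dll3 was not called (adjusted p = 0.984). Among retinoic acid genes 9 of 16 fell and 3 rose. The receptors parted by member: Rara was at 30.7, 34 and 32.6 CPM in dKO and 114, 109.8 and 121 CPM in rescue and Rarg at 13.2, 13.7 and 14.1 CPM in dKO and 37.9, 35.9 and 38.9 CPM in rescue, both higher, while their partner Rxra was lower at 40.8, 44 and 42.6 CPM in dKO against 18.3, 18.5 and 20.02 CPM in rescue. Their log2 fold changes were 1.82 ± 0.072, 1.46 ± 0.076 and -1.17 ± 0.082. The binding protein gene Crabp1, under a peak of 2315 bp, was at 72.9, 70.2 and 53.7 CPM in dKO against 13.9, 12.7 and 15 CPM in rescue (log2 fold change -2.24 ± 0.12), and Rxrb was not called (adjusted p = 0.898).

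Imprinted genes, which are expressed from 1 parental copy, fell in 17 of 36 tested cases and rose in 6, or 18 and 10 without dKO replicate 3. Sfmbt2, a Polycomb-related gene whose imprint in the extraembryonic lineage depends on H3K27me3, was at 467, 516 and 484 CPM in dKO and 28.5, 29.98 and 28.7 CPM in rescue, against 43.2, 45.7 and 39.5 CPM in WT. It fell (log2 fold change -4.07 ± 0.072, adjusted p = 8.82e-12), with a Suz12 peak of 1473 bp over its promoter. Smoc1 and Inpp5f fell under their WT levels as well. Smoc1 was at 78.4, 73 and 79 CPM in dKO against 12.5, 12.8 and 12.6 CPM in rescue and 37.9, 38.4 and 35.9 CPM in WT, and Inpp5f at 29.99, 29.7 and 25.1 CPM in dKO against 4.97, 5.7 and 6.74 CPM in rescue and 16.5, 14.4 and 15.6 CPM in WT. Peg3, expressed from the paternal copy, rose to 73.2, 78.3 and 74.1 CPM from 32.4, 35 and 36 CPM (log2 fold change 1.12 ± 0.068). Meg3, the maternally expressed RNA of the Dlk1 domain, was at 2.49, 2.77 and 2.08 CPM in dKO and 2.31, 2.85 and 2.25 CPM in rescue, whereas WT had 16.1, 13.9 and 14 CPM, and it was not called (adjusted p = 0.975). Grb10, a growth regulator, was at 101, 109 and 305 CPM in dKO and 240.3, 272 and 243 CPM in rescue, so dKO replicate 3 lay above the rescue libraries and the other dKO libraries below them. It was not called (adjusted p = 0.23), and was called higher without dKO replicate 3, at 1.26. These counts do not tell the parental copies apart.

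Genes of antigen presentation and the interferon response fell in 10 of 16 tested cases and rose in 4 (median -1.5). H2-K1, a class I heavy chain, was at 97, 96.8 and 90.8 CPM in dKO and 18.8, 16.9 and 17.6 CPM in rescue (log2 fold change -2.41 ± 0.085), level with the 16.2, 16.6 and 19.96 CPM of WT. Psmb9, an immunoproteasome subunit, was at 20.9, 18.1 and 17.2 CPM in dKO and 1.57, 1.54 and 1.3 CPM in rescue, and Tap1, of the peptide transporter, at 32, 31.4 and 24 CPM in dKO and 2.8, 2.99 and 2.59 CPM in rescue. Their log2 fold changes were -3.65 ± 0.15 and -3.38 ± 0.15 (adjusted p = 1.73e-09 and 4.7e-09). Psmb9 and Tap1 are transcribed away from each other, and 1 Suz12 peak of 1189 bp covers the interval between their starts. That interval of 225 bases is shown because both genes fell (chr17:34187331-34187555, GRCm38.p6, RefSeq, read on the strand of Tap1, with CG dinucleotides in capitals).
Psmb9-Tap1: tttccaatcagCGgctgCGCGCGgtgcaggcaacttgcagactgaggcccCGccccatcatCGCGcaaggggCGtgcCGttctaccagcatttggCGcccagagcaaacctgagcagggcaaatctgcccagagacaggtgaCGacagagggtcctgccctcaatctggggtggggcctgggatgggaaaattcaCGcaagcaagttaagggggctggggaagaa
It holds 12 CG dinucleotides. Nlrc5, the transactivator of class I genes, had 96 counts over dKO and 1 over rescue (ratio of CPM 124, exact interval 21.7 to 4930), an interval at the 95% level that covers counting error only. Bst2 was at 204, 198 and 152 CPM in dKO and 49.6, 53.1 and 47.3 CPM in rescue (log2 fold change -1.88 ± 0.10). The class II gene H2-Eb1 followed dKO replicate 3, at 39.7, 39.98 and 9.94 CPM in dKO and 11, 9.01 and 9.51 CPM in rescue. Its fall (adjusted p = 0.0134) was lost without dKO replicate 1 or 2.

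Cell-cycle inhibitors, D cyclins and p53 targets, listed together, fell in 14 of 22 cases and rose in 5. Ccnd2, cyclin D2, was at 61.1, 65.6 and 32.5 CPM in dKO and 2.37, 3.22 and 2.33 CPM in rescue, and its dKO level was lowest in replicate 3 (log2 fold change -4.34 ± 0.26). Perp and Pmaip1, targets of p53, were at 55.1, 55.5 and 47.9 CPM in dKO against 6.26, 5.65 and 6.53 CPM in rescue and 297, 284 and 276 CPM in dKO against 90.3, 97.7 and 84.2 CPM in rescue (log2 fold changes -3.1 and -1.66). Other p53 targets, named after their values were seen, rose: Mdm2, Bax and Cdkn1a had log2 fold changes of 0.29 ± 0.050, 0.32 ± 0.051 and 0.29 ± 0.066, the last not called with total-count scaling. Rb1, the retinoblastoma gene on chromosome 14, was at 26.4, 31.1 and 22.9 CPM in dKO and 7.29, 7.28 and 6.83 CPM in rescue, under the 23.8, 23.6 and 26 CPM of WT (log2 fold change -1.91 ± 0.12). Ccng1 was not called although its groups did not overlap (log2 fold change -0.05 ± 0.051). Of 19 stress genes 7 rose and 7 fell (36.8% each, near the shares of all tested genes). Atf4, of the integrated stress response, was at 282, 268 and 239 CPM in dKO and 470.1, 540.3 and 484 CPM in rescue and its target Trib3 at 50.7, 57.8 and 40.5 CPM in dKO and 112, 99.1 and 109 CPM in rescue (log2 fold changes 0.92 ± 0.077 and 1.11 ± 0.11). Hmox1 and Sesn2 rose, with log2 fold changes of 0.84 ± 0.062 and 0.64 ± 0.079, and Gadd45a was not called (adjusted p = 0.853).

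Both lists of metabolic genes held more rises than falls. Of 20 glycolysis genes 11 rose and 2 fell, with a median of 0.33. Slc2a1, the glucose transporter, was at 156, 134 and 165 CPM in dKO and 349.6, 322 and 333 CPM in rescue (log2 fold change 1.14 ± 0.079), and Pkm, Hk2 and Aldoa rose, with log2 fold changes of 0.74 ± 0.050, 0.72 ± 0.054 and 0.71 ± 0.050. Of 22 cholesterol synthesis genes 14 rose and 7 fell. Cyp51 was at 198, 190.5 and 197 CPM in dKO and 310.2, 319 and 311 CPM in rescue (log2 fold change 0.68 ± 0.052), and Hmgcs1 rose (log2 fold change 0.62 ± 0.058). Of the 7 that fell, 3 lie on shifted chromosomes, Pmvk and Fdps on 3 and Fdft1 on 14 (log2 fold changes -1.18 ± 0.15, -0.64 ± 0.14 and -0.7 ± 0.079). The other 4 lie elsewhere, among them Mvd and Hsd17b7 (log2 fold changes -0.41 ± 0.058 and -0.45 ± 0.069), and Fdps, Mvd and Hsd17b7 were named after their values were seen. Ribosomal protein genes served as housekeeping genes: 30 of 36 were not called, 3 rose and 3 fell. Rplp0 rose and Rpl13 fell, with log2 fold changes of 0.31 ± 0.060 and -0.3 ± 0.078, and Rpl4 was not called (adjusted p = 0.958). Many ribosomal protein genes have near-identical copies, so their counts are uncertain.

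Among called genes with at least 20 CPM in the higher group, predicted genes left out, the largest fall was that of Tuba3b, an alpha-tubulin gene, at 24.9, 21.1 and 19.4 CPM in dKO and 0.286, 0.514 and 0.346 CPM in rescue (log2 fold change -5.87 ± 0.19). Tubulin genes have near-identical copies, so its counts are uncertain. Nxf7, an X-linked member of the RNA export family, was at 21.8, 21.1 and 22.7 CPM in dKO and 0.457, 0.56 and 0.648 CPM in rescue (log2 fold change -5.32 ± 0.16). Slfn9 was at 41.2, 44.8 and 45.2 CPM in dKO and 1.31, 0.934 and 1.38 CPM in rescue, well under the 12.3, 11.5 and 9.18 CPM of WT (log2 fold change -5.15 ± 0.15). Gsn, the actin-severing protein gelsolin, was at 101, 103 and 109 CPM in dKO and 4.32, 3.97 and 4.71 CPM in rescue (log2 fold change -4.59 ± 0.084), and Rhox6, an X-linked homeobox gene, at 62.2, 64.5 and 70.7 CPM in dKO and 3.2, 3.13 and 3.33 CPM in rescue (log2 fold change -4.35 ± 0.11). Pdlim4, Chit1 and Atp6v1c2 fell, with log2 fold changes of -4.87 ± 0.14, -4.71 ± 0.21 and -4.62 ± 0.23. Their rescue libraries all lay between 0.794 and 2.05 CPM.

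Rises of the same kind came near the WT level or passed it. Trh, thyrotropin-releasing hormone, was at 21.3, 21.8 and 28.3 CPM in dKO and 309.9, 319 and 292 CPM in rescue, against 144, 153 and 139.8 CPM in WT (log2 fold change 3.68 ± 0.10). Apela, a peptide hormone of early embryos, was at 3.39, 3.29 and 4.55 CPM in dKO and 51.3, 53.4 and 48.2 CPM in rescue (log2 fold change 3.75 ± 0.12). Pcyt1b, of phosphatidylcholine synthesis, was at 8.21, 8.4 and 7.99 CPM in dKO and 97.4, 103 and 98.9 CPM in rescue (log2 fold change 3.6 ± 0.068), and Ccdc141 at 4.45, 6.31 and 6.15 CPM in dKO and 73.4, 82 and 74.5 CPM in rescue (log2 fold change 3.73 ± 0.11). Csrnp3, Aoah and Dlgap3 rose, with log2 fold changes of 4.11 ± 0.11, 4.05 ± 0.13 and 3.35 ± 0.11. For all of these the rescue libraries lay above every dKO library. Pcolce, a collagen-processing enhancer, was at 7.76, 8.11 and 23.7 CPM in dKO and 159, 143 and 153 CPM in rescue (log2 fold change 3.47 ± 0.37, or 4.25 without dKO replicate 3).

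The next rule was applied to called genes whose groups did not overlap, predicted genes left out. In 11 of them the 3 rescue libraries together held 1 to 3 counts while every dKO library was above 1 CPM. No gene of this set met the reverse rule. Hoxa11os had 106 counts over dKO and 1 over rescue (ratio of CPM 137, exact interval 24 to 5440). Rspo4, a Wnt agonist, had 150 counts over dKO and 3 over rescue (ratio of CPM 64.4, exact interval 21.6 to 316), and the antigen Luzp4 had 132 counts over dKO and 2 over rescue (ratio of CPM 85, exact interval 23.1 to 709). WT held few counts of Hoxa11os, Rspo4 and Luzp4 too, at most 0.187 CPM in a library. Others, named without values, are Nlrc5, given above, Cda, Lrrc32, Ush1g, Wfdc10, and Scara3 and Ptpn20 of chromosome 14.

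A list of 7480 Suz12 peaks (median width 1032 bp), deposited for wild-type 129B6F1 ES cells, was laid over the promoter windows of tested genes. Suz12 marks where PRC2 sits in normal cells, so the peaks describe the promoters and not these libraries. Of 2658 tested genes with a peak over the window, 63.2% fell and 15.7% rose, and of 8502 without one 29.7% fell and 37.9% rose. The median log2 fold changes were -0.626 and 0.0729. Wider peaks went with deeper falls. The median was -0.373 for peaks under 1 kb (1178 genes), -0.847 for peaks of 1 to 3 kb (1299 genes) and -1.34 for peaks of 3 kb or more (181 genes). The genes under the widest peaks were also the lowest in level, with medians of 2.84 CPM in dKO and 1.14 CPM in rescue, against 22.4 and 16.7 CPM under peaks of less than 1 kb. The part of level in the trend was not tested. Among genes with a mean of at least 2 CPM, the medians of these same fitted values were -0.422 with a peak and 0.117 without.

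**Figure D4:**
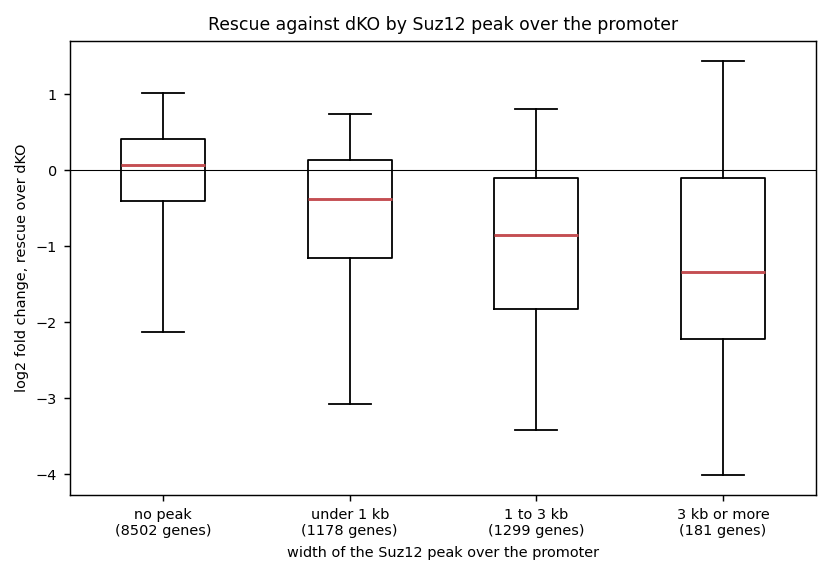
Log2 fold change of rescue over dKO (y axis) for tested genes by width of the Suz12 peak over the promoter (x axis). Boxes span the quartiles with the median in red, and whiskers reach the 5th and 95th percentiles. The medians go from 0.0729 without a peak to -1.34 under peaks of 3 kb or more.

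Read from the changes, 51.0% of 937 genes that fell over 4-fold had a promoter peak, against 23.8% of all tested genes with a window. Of the genes that rose, 11.5% had one, but of 114 that rose over 4-fold 24.6% did. Sp5, Eomes, Gbx2, Sox11 and T, described above, are among the risers under a peak. CpG content differed between these classes too. The median observed over expected CpG ratio of the window was 0.616 for genes that fell over 4-fold, 0.401 for those that rose over 4-fold and 0.779 for all tested. A peak went with a lower median at either CpG content: -0.572 with a peak against 0.123 without at a ratio of at least 0.6, and -1.02 against -0.17 under 0.6.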

How the data were processed

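Bulk RNA libraries of WT, dKO and rescue ES cells, 3 each, were used as deposited, in the form of raw read counts per gene. Per the submitters' processing notes, reads were processed with Trimmomatic, STAR 2.4.0 and HTSeq on mm10, and the strand setting of the authors' counting is not given in the sources used here. The library kit named in the labels does not mark strand. Of the ChIP-seq data only the deposited Suz12 peak coordinates of wild-type 129B6F1 cells (7480 peaks) were used, and the other 61 ChIP-seq samples were not analysed here.

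The count tables held 24222 genes and 0 entries without a gene name. Genes were kept by filterByExpr and TMM-scaled, and all 9 libraries were fitted as 3 groups by edgeR 4.0.16 in R 4.3.3 (robust glmQLFit, glmQLFTest, two-sided, 6 residual degrees of freedom), with Benjamini-Hochberg adjustment over 14145 tested genes and a threshold of 0.05. Positions came from RefSeq on GRCm38.p6: 22858 genes matched by symbol, 1205 by synonym, 159 not at all, and 17927 had a promoter window (250 bases before to 50 after the start). A peak counted for a gene when it overlapped the window by any base. The fit was run on simulated counts in which few genes changed, up or down with equal odds, and none of those was of low level. These data differ in each respect, so the run does not check the scaling or the calls under their conditions.

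Members and gene lists were chosen with earlier results of these data known, so list counts and medians are descriptions with no test. Named genes are Ezh1, Ezh2, Eed and Suz12, the 10 largest changes each way at 20 CPM or more without overlap (predicted genes left out), up to 10 each way with 0 to 3 counts in the lower group, up to 4 called members with the smallest adjusted p and 1 uncalled member of each list, and the 5 most variable genes within dKO and within rescue. Some genes that the rule names are not reported here. Genes outside the rule are marked as named after their values were seen, and Pou5f1, Nanog and Esrrb as ES cell markers. Alternatives were DESeq2 1.42.0, other scalings and filters, a replicate block, the 2 groups alone, each library left out, chromosomes 3 and 14 left out, and other peak rules.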

Additional observations from a re-analysis of the deposited data

How the results depend on the processing

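No call among the 287 named genes changed direction under any of 18 settings. Of the 238 called ones, 7 lost the call under at least 1 setting (Alg13, Cdkn1a, Col18a1, E130012A19Rik, H2-Eb1, Rpl38 and Tmem92), and 17 others gained one. DESeq2 called 4705 genes higher and 5307 lower, RLE scaling 4756 and 5238, no low-count filter 4694 and 5847, and the rescue and dKO libraries alone 4594 and 4930. Higher calls were 45.6% of all calls with TMM, 34.4% with total-count scaling (3342 higher, 6381 lower) and 40.1% with upper-quartile scaling (3907 and 5840), and the last of these put the median of all genes at -0.11. Leaving out 1 library gave 4148 to 4824 higher and 5017 to 5768 lower, and leaving out chromosomes 3 and 14 gave 4423 and 4698. With a mean of at least 2 CPM required, 1704 genes fell over 2-fold in place of 2820, since fewer genes of low level were tested.

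The median log2 fold change of Suz12-peak genes, -0.626, was -0.479 when the scaling and fit were repeated on genes with a mean of at least 2 CPM, -0.76 with total-count and -0.691 with upper-quartile scaling, -0.894 for peaks above the median width and -0.545 for peaks lying at most 1 kb from a gene's ends. Of 49 list medians, 36 moved under some setting and 7 changed sign. With a mean of at least 2 CPM, the medians were 0.358 for 2-cell-like genes, 0.399 for Fox factors, 0.4 for fibroblast and mesenchyme genes, 0.0709 for blood and endothelial genes and -0.778 for cadherins. With the rescue and dKO libraries alone they were 0.449 for 2-cell-like genes and -0.256 for cadherins. Without chromosomes 3 and 14 they were -0.0646 for DNA methylation enzymes and 0.298 for BMP, Id and Smad genes. Leaving out 1 library put the cadherin median between -0.184 and 0.298, with -0.0325 without dKO replicate 3 and -0.0489 without rescue replicate 1. The cause of these sign changes was not tested.

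The labels give all groups replicate numbers 1 to 3. Deviations of same-numbered dKO and rescue libraries correlated at -0.0173, -0.0165 and 0.0553, and those of differently numbered libraries at -0.0784 to 0.0806. No pairing by number was thus seen over all tested genes. A correlation over all genes can miss a pairing that touches few of them, so whether the numbers pair the samples is not settled. A fit with the replicate block called 4526 genes higher and 5391 lower (718 and 2825 over 2-fold) and lost no call of a named gene. At these depths a group total of 3 counts corresponds to 0.0486 CPM in dKO and 0.0377 CPM in rescue, and a difference between levels under these values was not detectable. The libraries do not show DNA copy number, protein or histone marks.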

Other observations

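Within the rescue group, 1 or 2 libraries also differed for some genes, most of which have near-identical copies elsewhere in the genome, so that their counts are uncertain. Rps16, a ribosomal protein gene, was at 108, 298 and 81.2 CPM in rescue, 318, 285 and 96.3 CPM in WT and 310, 244 and 198 CPM in dKO. Chchd2, a mitochondrial protein gene, was at 97.7, 30.8 and 97 CPM in rescue and 40.4, 36.9 and 84.8 CPM in WT, and Glrx3 at 20.1, 7.19 and 19.8 and 10.1, 9.28 and 24.5 CPM. For these 3 genes rescue replicates 1 and 3 lay together with WT replicate 3, and rescue replicate 2 with WT replicates 1 and 2. E130012A19Rik and Foxd3, given above as risen, were likewise highest in rescue replicates 1 and 3 within rescue and in WT replicate 3 within WT. The bearing of this split on the comparison with dKO was not tested. Plekhh2 was at 14.3, 69 and 16.3 CPM in rescue, with replicate 2 apart.

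In dKO, Alg13, an X-linked glycosyltransferase gene, was at 113, 116 and 450.2 CPM, against 746, 735 and 766 CPM in rescue and 868, 890.2 and 887 CPM in WT, and its rise was lost without dKO replicate 1. Apba2 was at 17.1, 19.2 and 4.83 CPM in dKO, 1.2, 1.82 and 1.73 CPM in rescue and 0.275, 0.839 and 0.619 CPM in WT.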
